A study of Mus musculus with 27 samples.

Results

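The 9 transcription factors described here act where mesoderm and endoderm are set apart. They were Eomes, Mixl1, Mesp1, Gsc, Sox17, Foxa1, Foxa2, Hnf4a and Hhex, 9 genes of the 25209 in each of 8 expression tables. They were chosen by name as transcription factors of the primitive streak, mesoderm and endoderm, with earlier results of these data known. Counts of members called, set beside the share of all genes, are therefore descriptions and no test of the set. RNA of V6.5 cells, a mouse embryonic stem cell (mESC) line, had been sequenced in 27 libraries from wild-type (WT) cells and from 2 Zfp512b knockout clones, KO4 and KO8, each a single clone. In these clones a cassette that stops transcription, with an mCherry or a puromycin resistance gene, was inserted behind the third exon of Zfp512b, so reads from the exons before it can remain. Naive cells (Day 0, in 2i medium, which blocks MEK and GSK3, plus LIF) had 3 libraries per genotype. Primed cells (Day 2, in serum with LIF), cultures differentiated toward neural progenitor cells (NPC, Day 10, by embryoid bodies and retinoic acid) and cultures differentiated toward cardiomyocytes (CM, Day 7.5, by hanging-drop embryoid bodies and vitamin C) had 2 libraries per genotype. The WT libraries of a stage serve both clones, so the differences of KO4 and of KO8 from WT are not independent. No label says that libraries of a group came from separate cultures, so their spread may be technical.

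In the embryo, epiblast cells that pass through the primitive streak become mesoderm or definitive endoderm, and a cell that can still become either is called mesendoderm. Eomes is a T-box factor of the streak, Mixl1 a homeobox factor of the same cells, Mesp1 a basic helix-loop-helix factor of the first cardiovascular mesoderm and Gsc a homeobox factor of the anterior streak. Sox17 and the forkhead factors Foxa1 and Foxa2 are regulators of endoderm, Hnf4a is a nuclear receptor of visceral endoderm and later of liver and gut, and Hhex is a homeobox factor of anterior endoderm that is also made in endothelial and blood progenitors. Foxa1 and Foxa2 are also made in ventral neural tissue, and Sox17 in extraembryonic endoderm and endothelium.

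The tables give 1 mean per gene over the libraries compared, and the whole reads of each library were worked out from these means. Values are normalized reads, the reads of a library divided by its size factor. Differences and folds are on the log2(normalized reads + 1) scale, which understates the change of low genes. WT and KO4 values are on the scale of the KO4 table of a stage and KO8 values on that of the KO8 table, which differ by at most 3.89% (NPC). Summed levels of gene lists are the exception, with all 3 groups on the scale of the KO4 table. The depth was between 15.1 M and 39.7 M (mega) reads per library, at least 34.2 M reads in naive cells and at most 19.3 M reads elsewhere. Reads were resolved for 6 of the 9 members in naive cells, 9 in primed cells, 9 in NPC and 8 in CM. Eomes, Gsc and Hhex in naive cells and Sox17 in CM were not resolved and had no test. A gene was tested with limma where its mean was at least 10 normalized reads, and called at an adjusted p under 0.05. Zfp512b (mm9 chr2:181316808-181327508, minus strand) had 929 and 977 normalized reads in primed WT libraries, 191 and 219 in KO4 and 150 and 180 in KO8. In CM it had 1060 and 1118 in WT, 184 and 209 in KO4 and 159 and 178 in KO8, a 5.53-fold and a 6.62-fold reduction. Its reads were not resolved in naive cells and NPC.

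The 250 bases before the start of 4 endoderm factors are shown first, since all 4 were called lower in KO4 in CM cultures. They are RefSeq sequences of GRCm38.p6, 5′ to 3′ in the direction of the gene, with capitals for matches to a motif on either strand. An entry was found for 7 of the 9 members. Where a gene had several starts only the most upstream was used, also for the promoters counted below.
Foxa1 promoter, chr12:57546112-57546361, minus strand: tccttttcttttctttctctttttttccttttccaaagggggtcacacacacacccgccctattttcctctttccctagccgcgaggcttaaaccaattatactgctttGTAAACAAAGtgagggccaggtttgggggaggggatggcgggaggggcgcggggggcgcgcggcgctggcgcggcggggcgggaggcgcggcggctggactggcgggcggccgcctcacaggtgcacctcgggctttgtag
Foxa2 promoter, chr2:148046970-148047219, minus strand: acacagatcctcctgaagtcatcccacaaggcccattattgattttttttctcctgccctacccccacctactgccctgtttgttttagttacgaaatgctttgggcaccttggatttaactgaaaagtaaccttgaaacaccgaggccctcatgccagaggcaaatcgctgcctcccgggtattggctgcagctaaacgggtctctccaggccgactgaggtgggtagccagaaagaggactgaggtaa
Hnf4a promoter, chr2:163506607-163506856, plus strand: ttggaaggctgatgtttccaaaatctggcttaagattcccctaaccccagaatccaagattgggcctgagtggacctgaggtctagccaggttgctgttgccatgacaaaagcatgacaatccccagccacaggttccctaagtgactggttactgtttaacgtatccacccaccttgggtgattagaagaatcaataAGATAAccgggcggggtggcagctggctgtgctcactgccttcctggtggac
Hhex promoter, chr19:37434591-37434840, plus strand: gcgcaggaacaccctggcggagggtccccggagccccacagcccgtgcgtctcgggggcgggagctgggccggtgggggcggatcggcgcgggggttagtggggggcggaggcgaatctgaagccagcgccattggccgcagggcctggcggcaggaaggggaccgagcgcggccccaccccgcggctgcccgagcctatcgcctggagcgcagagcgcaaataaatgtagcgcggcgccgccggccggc
The forkhead letters searched on both strands, TGTTTAC, stand in 3.06% of the 27025 promoters of the same length. The GATA letters, AGATAA, stand in 10.2% of them, and the HNF4 letters, CAAAGNCCA, in 1.65%. The T-box letters, GGTGTGA, stand in 3.31% and the SOX letters, AACAAAG, in 4.97%. The Foxa1 promoter held the forkhead letters on the other strand as GTAAACA, 141 bases before the start, and overlapping them the SOX letters, 138 bases before the start. The Hnf4a promoter held the GATA letters 52 bases before the start. In the windows of Foxa2 and Hhex none of the 5 was found. The matches are descriptions of the letters, not sites shown to be bound.

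In WT cells the order of the resolved members differed between NPC and CM. Naive levels are left out here, since only genes with means under 100 were resolved in naive cells. That limit removed Eomes, Gsc and Hhex, with naive means of 224.5, 148.8 and 358.1 normalized reads over the WT and KO4 libraries. Levels are given as RPKM, the reads per kilobase of exon scaled to a fixed library total, since they are set between genes, and the stages were normalized separately, so no test was made across them. In primed WT cells Hhex (1.91, between 1.87 and 1.95) and Eomes (1.50, between 1.42 and 1.59) were highest, and the others lay at 0.332 or below. In NPC the order was Foxa1 (8.49, between 8.36 and 8.62), Sox17 (4.02), Foxa2 (3.72), Hhex (1.34), Eomes (0.767), Hnf4a (0.753) and Mixl1 (0.335), with Mesp1 and Gsc at 0 reads in both WT libraries. Sox17 (3.87 to 4.17) and Foxa2 (3.50 to 3.94) overlapped in that order, and so did Eomes and Hnf4a. In CM Foxa2 (11.3), Eomes (8.97), Foxa1 (8.38) and Hhex (8.33) lay side by side with overlapping ranges, above Gsc (1.69), Mixl1 (1.47) and Mesp1 (0.392). Hnf4a, at 3.43, ranged from 0.874 to 5.99 between the 2 CM WT libraries, which overlapped Eomes and Foxa1 above it and Gsc and Mixl1 below it. A count of 0 allows up to 3 reads, or an RPM (the reads scaled to a fixed library total) of 0.186 in the shallowest NPC library, and covers counting error only.

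**Figure D1:**
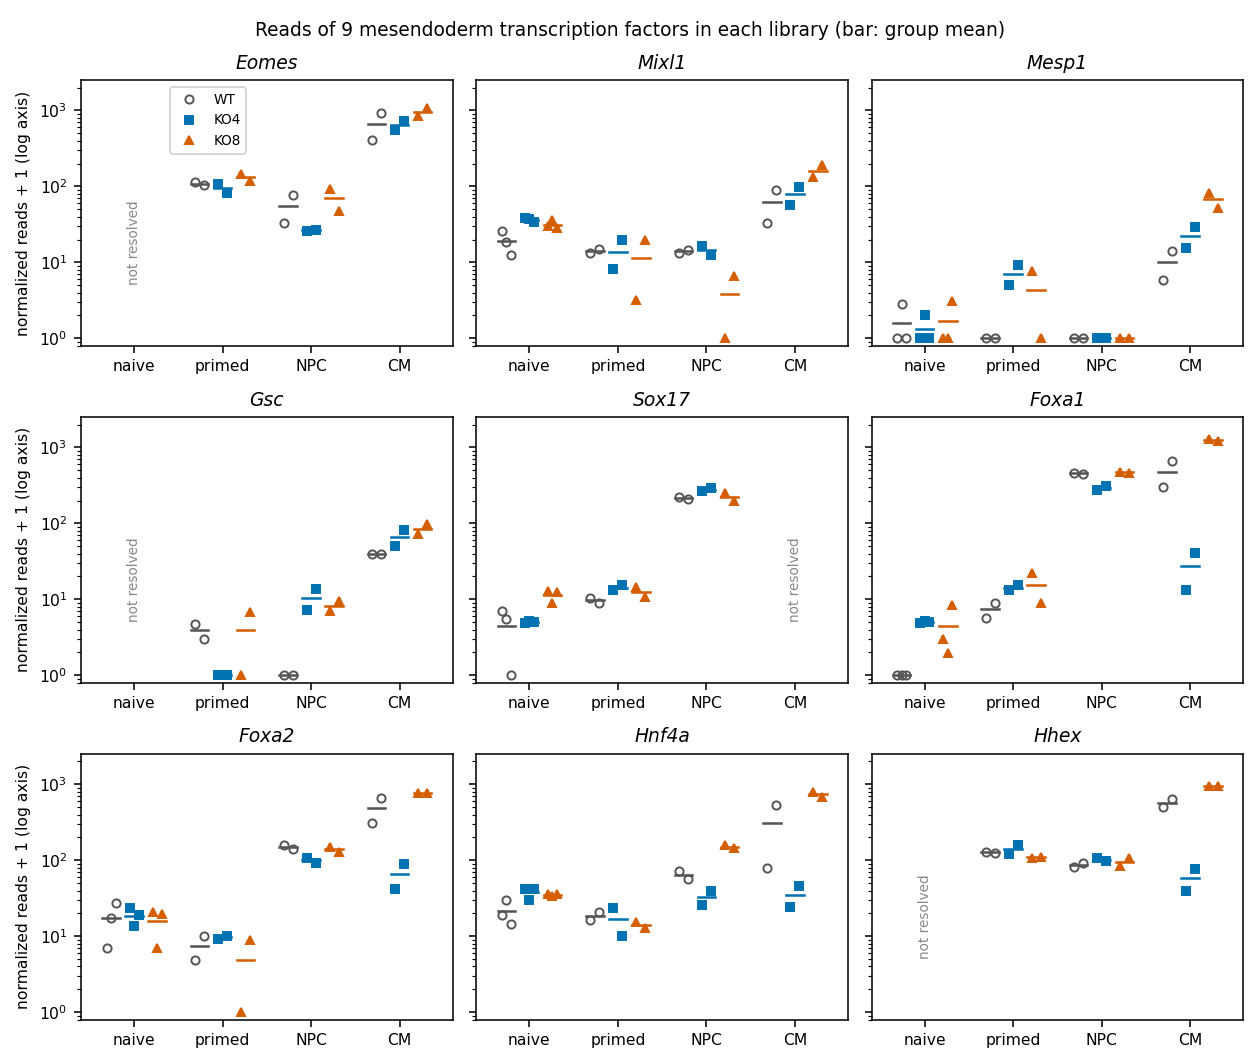
Normalized reads + 1 (log axis) of the 9 members in each library by stage (x axis), with circles for WT, squares for KO4, triangles for KO8 and a bar at each group mean; "not resolved" marks members whose reads could not be worked out. In CM the KO4 squares of Foxa1, Foxa2, Hnf4a and Hhex lie below both WT circles and the KO8 triangles above them.

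In CM cultures the endoderm factors Foxa1, Foxa2, Hnf4a and Hhex fell in KO4, 6.17-fold to 19.2-fold with all libraries, and in KO8 none of them was called lower. In KO8, Foxa1 and Hhex rose, together with the streak and mesoderm factors Mixl1, Mesp1 and Gsc, while none of these last 3 passed the test in KO4. Of 8 members tested in KO4, 4 were called lower and 0 higher, where 52.0% of all 9152 genes tested were called, 28.3% lower and 23.7% higher. A call in KO4 was thus about as frequent among the members as among all genes tested, which leave out genes with means of 1000 or more. Of 8 members tested in KO8, 5 were called higher and 0 lower, where 23.6% of 9171 genes were called, 11.3% higher and 12.3% lower. The median log2 difference of the members was -1.28 in KO4 and 1.25 in KO8, against -0.04 and -0.01 over all genes tested. Groups that did not overlap were common in CM. In KO4, 41.3% of all genes tested lay below both WT libraries and 36.7% above them. In KO8 these shares were 32.5% and 30.6%. Fewer cells of a type and less RNA per cell cannot be told apart in these bulk libraries.

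Foxa1 (mm9 chr12:58641618-58647108, minus strand), a forkhead factor that opens chromatin in endoderm, had 302 and 658 normalized reads in the WT libraries, 12.3 and 40 in KO4 and 1273 and 1204 in KO8. Both KO4 libraries lay below both WT libraries and both KO8 libraries above them. Foxa1 differed by -4.26 on the log2 scale (SE 0.50, limma adjusted p = 8.99e-05) in KO4 and 1.43 (SE 0.27, adjusted p = 0.0042) in KO8.

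Foxa2 (mm9 chr2:147868613-147872705, minus strand), its relative that is needed for node and endoderm, had 310 and 652 in WT, 41 and 89.4 in KO4 and 772 and 770 in KO8. The 3 groups did not overlap, but KO8 stood only a little above the higher WT library. In KO4 Foxa2 fell by 2.87 on the log2 scale (SE 0.39, limma adjusted p = 0.000224). In KO8 the log2 difference was 0.74 (SE 0.26) and was not called (adjusted p = 0.0686).

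Hnf4a (mm9 chr2:163332544-163398646, plus strand), the nuclear receptor of visceral endoderm and liver, had 78.8 and 541 in WT, 23.6 and 45.2 in KO4 and 800 and 679 in KO8. The WT libraries differed 6.79-fold from each other, and the KO4 libraries lay below the lower of them. The log2 difference was -2.62 in KO4 (SE 0.71, limma adjusted p = 0.0113). In KO8 it was 1.79 (SE 0.64), which was not called (adjusted p = 0.0709).

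Hhex (mm9 chr19:37507377-37515218, plus strand), the homeobox factor of anterior endoderm and of blood and endothelial progenitors, had 507 and 642 in WT, 38 and 75.7 in KO4 and 946 and 952 in KO8. It had the smallest spread between WT libraries of the 4 endoderm factors, 1.27-fold, and the groups were far apart. Hhex differed by -3.39 on the log2 scale in KO4 (SE 0.29, limma adjusted p = 1.19e-05) and 0.69 in KO8 (SE 0.12, adjusted p = 0.00244).

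Sox17 (mm9 chr1:4481009-4486494, minus strand), the SOX factor of endoderm and endothelium, could be read in CM only from the authors' means. Its mean over the WT and KO4 libraries was 510.2 normalized reads and that over the WT and KO8 libraries 1014.9, so that the KO8 libraries had on average 952.3 more normalized reads than the KO4 libraries. A search that limited how far libraries of a group could lie apart found 8 sets of whole reads that gave both means. Sets outside that limit were not listed. Over these sets the group mean ran from 68.3 to 926 in WT, from 94.3 to 952 in KO4 and from 1077 to 1959 in KO8. KO8 was the highest group in each set, and the order of WT and KO4 could not be read.

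Of the 4 streak and mesoderm factors, 3 were called higher in KO8. In KO4 limma called 0 of the 4, with 0 at an unadjusted p under 0.05. Mesp1 (mm9 chr7:86937127-86938674, minus strand), which marks the first cardiovascular mesoderm, had 4.93 and 13.1 normalized reads in WT, 14.4 and 28.4 in KO4 and 82.1 and 51.6 in KO8. All 3 groups were low and did not overlap, and the WT values rest on 5 and 14 reads. In KO8 the log2 difference was 2.82 (SE 0.50, limma adjusted p = 0.00296), a 7.07-fold rise. In KO4 it was 1.22 (SE 0.60) and not called (adjusted p = 0.115).

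Mixl1 (mm9 chr1:182623174-182627165, minus strand), a homeobox factor of the streak, had 32.5 and 88.6 in WT, 56.4 and 98.8 in KO4 and 131 and 191 in KO8. KO4 overlapped WT and KO8 did not. Mixl1 differed by 1.50 on the log2 scale in KO8 (SE 0.40, limma adjusted p = 0.0242) and 0.47 in KO4 (SE 0.46, adjusted p = 0.422).

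Gsc (mm9 chr12:105709419-105711537, minus strand), a homeobox factor of the anterior streak, had 38.4 and 38.2 in WT, 49.3 and 79.9 in KO4 and 72.5 and 95.9 in KO8. The WT libraries were nearly equal and both clones lay above them. The difference was called in KO8 (log2 difference 1.06, SE 0.28, limma adjusted p = 0.0218) and not in KO4 (0.70, SE 0.34, adjusted p = 0.113).

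Eomes (mm9 chr9:118387330-118395250, plus strand), the T-box factor upstream of both mesoderm and endoderm programs, had 404 and 935 in WT, 557 and 736 in KO4 and 840 and 1090 in KO8. The groups overlapped. Neither clone was called, with log2 differences of 0.06 (SE 0.31, limma adjusted p = 0.887) in KO4 and 0.60 (SE 0.30, adjusted p = 0.185) in KO8. Of the members resolved in CM, Eomes is the one whose reads were least surely worked out: 0.071 sets of reads would be met by chance, against at most 0.0091 for the others.

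**Figure D2:**
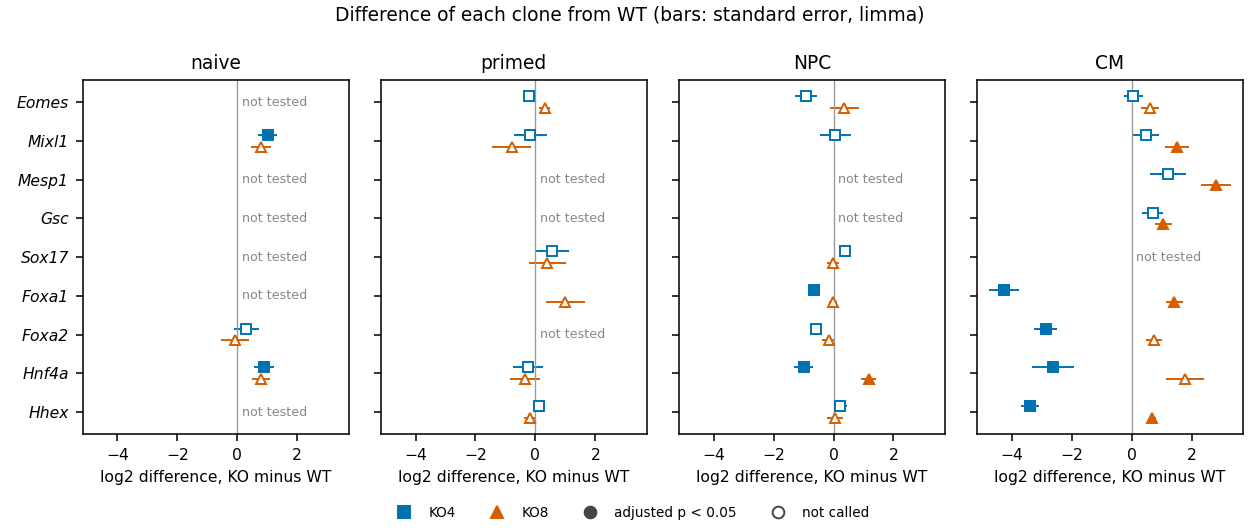
Log2 difference of each clone from WT (x axis, bars: standard error of limma) for the 9 members (y axis) at the 4 stages, with squares for KO4 and triangles for KO8, filled where the adjusted p was under 0.05; "not tested" marks members without resolved reads or under the filter. In CM the filled squares of Foxa1, Foxa2, Hnf4a and Hhex lie between -4.26 and -2.62 and the filled triangles between 0.69 and 2.82.

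The clones were also set against each other in a fit of all 3 groups of the stage. In CM 5 of 8 members were called higher in KO8 than in KO4 and 0 lower, where 52.8% of 9233 genes were called and 28.3% were called higher. The log2 difference of KO8 from KO4 was 5.67 for Foxa1 (SE 0.45, limma adjusted p = 2.16e-06), 4.39 for Hnf4a (SE 0.66, adjusted p = 0.000237), 4.06 for Hhex (SE 0.25, adjusted p = 3.97e-07), 3.58 for Foxa2 (SE 0.36, adjusted p = 1.19e-05) and 1.58 for Mesp1 (SE 0.53, adjusted p = 0.028). Mixl1 (1.01, adjusted p = 0.073), Eomes (0.51, adjusted p = 0.18) and Gsc (0.34, adjusted p = 0.38) were not called. The differences of Foxa1, Foxa2, Hnf4a and Hhex were called whichever of the 6 libraries was left out, and that of Mesp1 in 3 of 6 such fits. For Foxa1 it was 4.86 without KO4 library 1 and 6.48 without KO4 library 2.

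The 2 CM WT libraries stood apart in the members. Foxa1, Foxa2, Eomes, Mixl1, Mesp1 and Hnf4a were 2.1-fold to 6.79-fold higher in WT library 2 than in WT library 1 (the numbers only name them), Hhex was 1.27-fold higher, and Gsc was equal. Over all 9152 genes the median ratio of the higher to the lower WT library was 1.15, and 4.98% of genes differed at least 2-fold. Of 8 members 7 were higher in WT library 2, against 46.1% of all genes. All 8 were higher in KO4 library 2, up to 3.08-fold for Foxa1, against 51.6% of all genes. The KO8 libraries differed at most 1.58-fold.

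The results in CM that rest on 1 library follow. In KO4, the fits without WT library 2 kept only Hhex (log2 difference -3.22, limma adjusted p = 0.0344), and Foxa1 (-3.70, adjusted p = 0.061), Foxa2 (-2.34, adjusted p = 0.069) and Hnf4a (-1.24, adjusted p = 0.186) were no longer called. Hnf4a was also lost without KO4 library 1 (-2.17, adjusted p = 0.0516), and without WT library 1 its difference was -4.01. Hhex was called in all 4 such fits. The fall of Foxa1 in KO4 was 10.9-fold without KO4 library 1 and 33.6-fold without KO4 library 2, and both were called. In KO8, Foxa1, Mesp1 and Hhex were called in all 4 fits, and their differences were smallest without WT library 1. They ranged from 0.87 to 1.99 for Foxa1 and from 0.52 to 0.86 for Hhex. The rise of Mesp1 was 4.59-fold without WT library 1 and 10.9-fold without WT library 2. Mixl1 was lost without KO8 library 2 (1.23, adjusted p = 0.11) and was 0.79 without WT library 1 and 2.21 without WT library 2. Gsc was lost without KO8 library 1 (1.26, adjusted p = 0.0557) or KO8 library 2 (0.86, adjusted p = 0.204). Foxa2, Hnf4a and Eomes, not called in KO8, had log2 differences of 1.27, 3.16 and 1.20 without WT library 2, each called, and of 0.20, 0.41 and -0.00 without WT library 1, of which Hnf4a was called (adjusted p = 0.0103). A group left with 1 library is assumed in such a fit to vary like the other group.

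**Figure D3:**
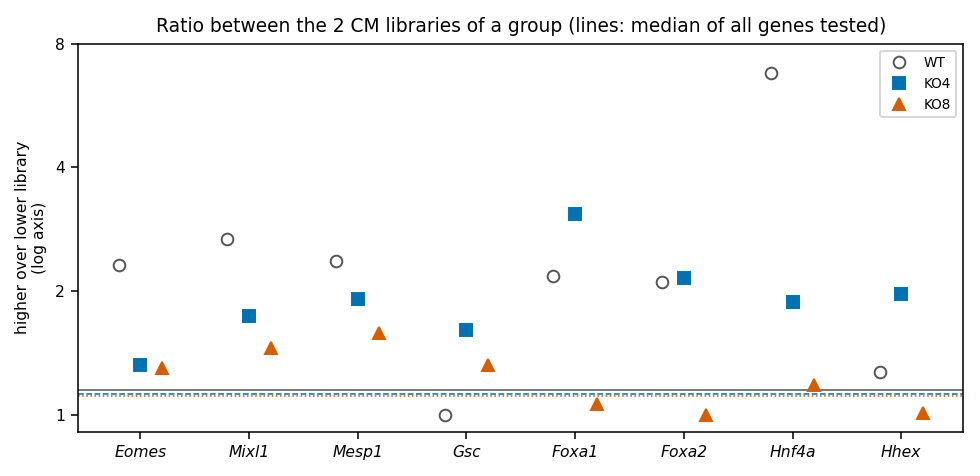
Ratio of the higher to the lower of the 2 CM libraries of a group (y axis, log) for the 8 members resolved in CM (x axis), with circles for WT, squares for KO4 and triangles for KO8; lines mark the median over all genes tested (1.15 in WT, 1.12 in KO4 and 1.11 in KO8). Hnf4a in WT stands highest at 6.79, and the KO8 triangles lie at 1.58 or below.

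Other genes of the same programs, from lists chosen with earlier results of these data known, were read beside the members in CM. Of 16 endoderm regulators, 7 were tested in KO4, of which 6 were called lower, and 8 in KO8, of which 2 were called higher and 1 lower. Sox7, a SOX factor of extraembryonic endoderm and endothelium, fell in both clones, by 5.18 on the log2 scale in KO4 (limma adjusted p = 7.05e-07) and by 0.96 in KO8 (adjusted p = 0.000182). Shh, a secreted signal of node, floor plate and gut endoderm, fell by 5.76 in KO4 (adjusted p = 4.97e-05) and differed by 0.15 in KO8 (adjusted p = 0.574). Onecut1, a liver and pancreas factor, rose by 2.48 in KO8 (adjusted p = 0.0362) and was under the filter in KO4. Gata4, Gata6 and 4 others of the list were not resolved.

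Of 20 products of visceral endoderm and liver, 11 were tested in KO4 and 5 of them were called lower, with none higher, and 13 were tested in KO8 and 5 of them were called higher, with none lower. Apoa4, an apolipoprotein, fell by 3.98 in KO4 (limma adjusted p = 0.000994) and differed by 0.58 in KO8 (adjusted p = 0.49). Spink1, a secreted protease inhibitor, fell by 3.75 in KO4 (adjusted p = 0.00486) and differed by 1.36 in KO8 (adjusted p = 0.0529). Fgb, a fibrinogen chain named after its values were seen, fell by 1.98 in KO4 (adjusted p = 0.0226) and rose by 2.99 in KO8 (adjusted p = 0.00296). The summed level of the 15 resolved genes of this list was 548 and 2000 normalized reads in WT libraries 1 and 2, 296 and 405 in KO4 and 3170 and 2536 in KO8, so the WT library with more Hnf4a also had more of these products. Apoc2 was at 0 in all 3 groups.

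Of 16 streak and mesoderm genes, 12 were tested in KO4, with 2 called higher and 6 lower, and 13 in KO8, with 3 called higher and 3 lower. Cer1, a secreted antagonist of Nodal, BMP and Wnt in anterior endoderm, fell by 2.07 in KO4 (limma adjusted p = 0.000532) and by 1.05 in KO8 (adjusted p = 0.0445). Sp5, a Wnt target, fell by 1.35 in KO4 (adjusted p = 0.00467) and by 0.76 in KO8 (adjusted p = 0.00446). Wnt3a, a Wnt ligand of the streak, rose in KO4 from a mean of 0.932 normalized reads in WT to 31.7 (adjusted p = 0.000589). Evx1, a homeobox factor of the posterior streak, rose by 2.03 in KO8 (adjusted p = 0.00041) and differed by 0.17 in KO4 (adjusted p = 0.713). T, the Brachyury gene, a factor of the streak named after its values were seen, was not called in either clone (-0.03 and 0.25, adjusted p = 0.93 and 0.407).

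Markers of the other cells that CM cultures can hold moved as well, and their part in the members' results was not tested. In KO4, 8 of 8 endothelial and blood genes tested were called lower, with a summed level of 549 to 565 against 3451 to 3482 in WT, and Fli1 (-4.34) and Erg (-5.65), endothelial ETS factors, among them. In KO8 2 of 8 were called higher and 2 lower, with a sum of 3789 to 3890, and Fli1 (-0.55) and Erg (-0.53) were called lower. The 2 called higher, named after their values were seen, were Gata1, an erythroid GATA factor (2.63, limma adjusted p = 0.000123), and Lyl1, a helix-loop-helix factor of blood progenitors (1.03, adjusted p = 0.00107). Of 16 cardiac muscle genes only Tbx5, Isl1 and Myl2 were resolved, and all 3 were called lower in KO4, with a sum of 22.6 to 52.6 against 1913 to 2309 in WT and 1518 to 1575 in KO8. The lower sum in KO8 was not shared by the 3 genes, of which 1 was called higher and 1 lower. Tbx5 was called higher, with 381 and 330 normalized reads in KO8 against 205 and 215 in WT. Isl1 was not called in KO8 (0.21, limma adjusted p = 0.195). Myl2, the ventricular myosin light chain, fell in KO4 from a mean of 1019 normalized reads to 1.03 (limma adjusted p = 8.03e-07) and by 2.46 on the log2 scale in KO8 (adjusted p = 1.92e-05). Of 6 neural progenitor genes tested in KO4 4 were called higher and 1 lower, among them Dll1, a Notch ligand (3.64, adjusted p = 6.59e-07), with a sum of 1355 to 1360 against 253 to 261 in WT and 241 to 275 in KO8. Of 10 pluripotency genes, 6 were called higher and 2 lower in KO4 (sum of 4874 to 6258, against 3688 to 4038 in WT), and 8 of 10 were called lower in KO8 (1726 to 1768). Of the parietal endoderm genes only Thbd, a thrombin receptor also made in endothelium, was resolved, with log2 differences of -4.00 in KO4 (adjusted p = 1.77e-07) and -1.77 in KO8 (adjusted p = 1.92e-05). Of the floor plate genes, in which Foxa1 and Foxa2 are also active, 4 of 8 tested were called lower and 2 higher in KO4, and 2 of 7 lower and 1 higher in KO8. Shh stands in this list and in that of endoderm regulators, so its fall in KO4 was counted in both.

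**Figure D4:**
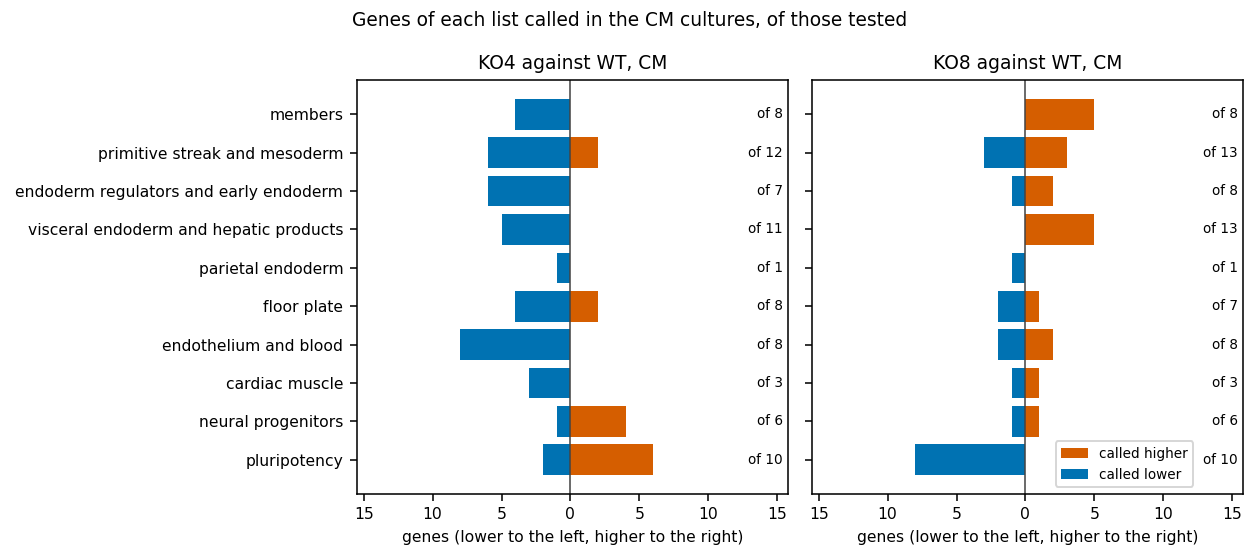
Number of genes of each list called higher (right, orange) and lower (left, blue) in CM cultures of KO4 (left panel) and KO8 (right panel), with the number tested at the right edge of each row. In KO4 the endothelial and blood list is lower in 8 of 8 and the members in 4 of 8, and in KO8 the members are higher in 5 of 8 and the pluripotency list lower in 8 of 10.

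In NPC cultures 3 calls were made among the endoderm factors. Of 7 members tested in KO4, Foxa1 and Hnf4a were called lower and none higher, where 17.8% of 9469 genes were called and 7.80% were called lower. Of 6 tested in KO8, Hnf4a was called higher and none lower, where 6.94% of 9609 genes were called and 4.60% were called higher. The median log2 difference of the members was -0.58 in KO4 and 0.02 in KO8. Of all genes tested, 28.2% lay below both WT libraries in KO4 and 26.7% above them. In KO8 these shares were 26.3% and 27.3%.

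Foxa1 had 463 and 449 normalized reads in NPC WT libraries, 274 and 309 in KO4 and 478 and 457 in KO8. KO4 lay below both other groups, which overlapped. On the log2 scale the difference was -0.64 in KO4 (SE 0.13, limma adjusted p = 0.00061), called whichever library was left out, and -0.02 in KO8 (SE 0.12, adjusted p = 0.955).

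Hnf4a had 71 and 56.3 in WT, 25 and 38.6 in KO4 and 156 and 143 in KO8. The 3 groups did not overlap, in the same order as in CM. Hnf4a was 2-fold lower in KO4 (SE 0.32 on the log2 scale, limma adjusted p = 0.0309) and 2.25-fold higher in KO8 (log2 difference 1.17, SE 0.26, adjusted p = 0.0395). The KO4 call was lost without WT library 1 (-0.84, adjusted p = 0.174) or KO4 library 1 (-0.70, adjusted p = 0.274). The KO8 call was lost without WT library 1 (1.33, adjusted p = 0.294) or WT library 2 (1.01, adjusted p = 0.303). In those 2 fits no gene of 9609 was called by limma, while 1047 and 1292 genes had an unadjusted p under 0.05, and all libraries together gave 667 calls with limma and 217 with voom weights.

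Foxa2 had 157 and 140 in WT, 107 and 90.8 in KO4 and 148 and 128 in KO8. KO4 lay below WT, with a log2 difference of -0.58 (SE 0.21, limma adjusted p = 0.0513) that was called without WT library 2 (-0.66, adjusted p = 0.0486), and KO8 overlapped WT (-0.16, adjusted p = 0.726). Sox17 had 222 and 206 in WT, 269 and 287 in KO4 and 247 and 194 in KO8. KO4 lay above WT, but the log2 difference of 0.38 (SE 0.15) was not called (adjusted p = 0.0903), and KO8 overlapped WT (-0.01, adjusted p = 0.976). Hhex had 81.4 and 91.8 in WT, 106 and 96.5 in KO4 and 83.8 and 105 in KO8, with no call (0.23, adjusted p = 0.586, and 0.06, adjusted p = 0.928).

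Of the streak factors in NPC, Eomes had 32.2 and 75.1 in WT, 25 and 26.1 in KO4 and 92.8 and 46.8 in KO8. KO4 lay below WT with a log2 difference of -0.92 (SE 0.38, limma adjusted p = 0.103), which was called without WT library 1 (-1.52, adjusted p = 0.00333). KO8 overlapped WT, with a log2 difference of 0.36 (SE 0.49, adjusted p = 0.732). Mixl1 had between 11.6 and 15.6 normalized reads in WT and KO4 libraries and 0 and 5.61 in KO8, which was under the filter. Gsc had 0 reads in both WT libraries, 6 and 13 reads in KO4 and 6 and 9 in KO8, and was under the filter in both clones. Mesp1 had 0 reads in all 6 NPC libraries.

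Set against each other in NPC, KO8 was higher than KO4 in Hnf4a (log2 difference 2.16, SE 0.30, limma adjusted p = 0.0126) and Foxa1 (0.61, SE 0.12, adjusted p = 0.0496), 2 of 6 members tested, where 1.29% of 9560 genes were called and 0.795% were called higher. Each was called in 2 of the 6 fits that left out 1 library, those without a KO8 library. Of the other lists in NPC, 8 of 8 neural progenitor genes tested rose in KO4 and 5 of 8 in KO8, among them Fabp7, a fatty acid binding protein of radial glia (3.03 and 3.90, limma adjusted p = 1e-08 and 0.00778). Of the 16 genes of that list, 7 were not resolved in NPC. Of 9 visceral endoderm and liver products tested in KO4, 3 were called lower, among them Afp, the fetal serum protein (-2.23, adjusted p = 0.0048), and none higher. The 2 WT libraries of Afp stood far apart, at 40.7 and 400 normalized reads, with 20.9 and 33.8 in KO4. Of 12 tested in KO8, Serpina1b, a serum protease inhibitor, was called higher (2.72, adjusted p = 0.0412) and none lower.

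Whether the clones' differences in CM exceeded those in NPC was tested in 1 fit over both cultures. In KO4, 3 of 6 members had a lower effect in CM, where 38.4% of 7949 genes were called and 20.9% were called lower. The effects differed by -3.62 for Foxa1 (SE 0.53, limma adjusted p = 4.98e-05), -3.61 for Hhex (SE 0.37, adjusted p = 1.04e-06) and -2.29 for Foxa2 (SE 0.46, adjusted p = 0.000875), each called in all 8 fits that left out 1 library. For Foxa1 the value was -2.80 without CM KO4 library 1 and -4.43 without CM KO4 library 2. For Hnf4a the difference of -1.62 (SE 0.82) was not called (adjusted p = 0.133). In KO8, 1 of 5 members was called, where 14.4% of 7954 genes were called and 5.85% were called higher. It was Foxa1, whose effect was 1.45 higher in CM (SE 0.35, adjusted p = 0.0148), called in 4 of 8 fits with 1 library left out.

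In naive cells 3 members could be tested. Mixl1 and Hnf4a were called higher in KO4, where 23.9% of 2761 genes were called and 12.0% were called higher, and limma called 0 of 3 in KO8, with both at an unadjusted p under 0.05, where 22.2% of 2831 genes were called. Mixl1 had 25, 17.3 and 11.5 normalized reads in WT, 37.1, 36.5 and 33.5 in KO4 and 28.7, 34.8 and 27.4 in KO8. All 6 knockout libraries lay above the 3 WT libraries. Of all genes tested, 18.3% lay above all WT libraries in KO4 and 21.8% in KO8. The log2 difference was 1.02 in KO4 (SE 0.32, limma adjusted p = 0.0156) and 0.78 in KO8 (SE 0.33, adjusted p = 0.0803). Hnf4a had 18, 29.1 and 13.6 in WT, 41, 29.2 and 40.6 in KO4 and 34.7, 32.8 and 34.7 in KO8. The knockout libraries again lay above WT, KO4 library 2 only just. The log2 difference was 0.89 in KO4 (SE 0.32, limma adjusted p = 0.0354) and 0.79 in KO8 (SE 0.31, adjusted p = 0.0645). The KO4 calls were made in 3 of 6 (Mixl1) and 2 of 6 (Hnf4a) fits that left out 1 library. They were both lost without WT library 3 (0.75, adjusted p = 0.0775, and 0.65, adjusted p = 0.128) and without KO4 library 1 (0.99, adjusted p = 0.051, and 0.81, adjusted p = 0.123). Mixl1 was also lost without KO4 library 2 (1.00, adjusted p = 0.0621). Hnf4a was also lost without WT library 1 (0.84, adjusted p = 0.0727) or KO4 library 3 (0.81, adjusted p = 0.117). In KO8, Mixl1 was called without WT library 1 (1.04, adjusted p = 0.0278) and Hnf4a without WT library 2 (1.07, adjusted p = 0.0277).

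Foxa2 had 6, 16.4 and 26.1 normalized reads in naive WT, 22.5, 12.5 and 18.3 in KO4 and 19.8, 5.96 and 18.9 in KO8, and the groups overlapped (log2 differences 0.30 and -0.07, limma adjusted p = 0.663 and 0.938). The other 3 members were under the filter. Foxa1 had 0 reads in all 3 WT libraries, 4 in each KO4 library and 2, 1 and 7 in KO8. Sox17 had between 0 and 6 reads in WT, 4 in each KO4 library and 12, 8 and 11 in KO8. Mesp1 had at most 2 reads in any naive library. The naive means of the members not resolved were 224.5 over WT and KO4 and 251.2 over WT and KO8 for Eomes, 148.8 and 172.3 for Gsc, and 358.1 and 352.9 for Hhex.

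In primed cells no member was called in either clone, 5 tested in KO4 and 6 in KO8, none with an unadjusted limma p under 0.05 and none called with voom weights, where 19.4% of 9217 genes were called in KO4 and 16.1% of 9187 in KO8. Eomes had 114 and 102 normalized reads in WT, 107 and 82.1 in KO4 and 146 and 117 in KO8, and Hhex 129 and 124 in WT, 119 and 157 in KO4 and 106 and 110 in KO8. For Eomes the log2 differences were -0.20 and 0.31 (adjusted p = 0.525 and 0.277), and for Hhex 0.11 and -0.19 (adjusted p = 0.715 and 0.554). The other members had at most 22.4 normalized reads in any library. Mesp1 had 0 reads in both WT libraries, 4 and 8 in KO4 and 6 and 0 in KO8, and was under the filter. Set against each other, no member differed between the clones in naive (3 tested) or primed cells (6 tested) by limma, with 0 and 1 at an unadjusted p under 0.05, where 5.51% and 2.77% of genes were called.

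Hnf4a was the one member tested at all 4 stages in both clones. Among 1119 genes tested in the same 8 comparisons, those whose 8 log2 differences ran most like its own were Ret (Pearson's r = 0.973), Fermt3 (0.923) and Marchf3 (0.918). The 8 comparisons share their WT libraries in pairs, and the largest differences, in CM, carry most of these values. In CM Fermt3 differed by -3.42 in KO4 and 1.22 in KO8 on the log2 scale, Marchf3 by -1.85 and 0.48 and Ret by -0.96 and 0.58.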

How the data were processed

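The authors trimmed reads with Trim Galore 0.6.7, aligned them to mm9 with HISAT2 2.2, obtained gene counts with featureCounts and ran DESeq2 1.46.0 on each clone and its WT. Strand and multi-mapping settings of the counting are not given in the sources used here. In each of the 8 tables the deposited base mean, a signal that is the mean of normalized reads over all libraries compared, was used. The other 5 columns hold the authors' own comparisons (log2 fold change, its standard error, the test statistic, p and adjusted p) and were not used. There were 0 columns of other samples.

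The base mean of a gene is a sum of whole reads, each weighted by 1 over the library's size factor and the number of libraries. It is given to 10 significant digits, and the 2 tables of a stage share the WT libraries, so the reads of each library could be solved for. Size factors came from genes with 1 read in a single library. Reads were kept where both base means were under 1000 (under 100 in naive cells), a limit set after tests on simulated data, in which 2 of 7679 naive genes, 2 of 13968 primed genes, 2 of 14039 NPC genes and 0 of 13849 CM genes then came out wrong. These counts pool genes of all levels under the limit. They come from the simulation that set it, so they are no independent check. Of real genes above 0, 42.5% were resolved in naive cells, 78.4% in primed cells, 75% in NPC and 73.5% in CM. They held 0.314%, 15.5%, 17.4% and 15.1% of the summed base means of the KO4 tables. All shares of genes tested thus leave out the most highly expressed genes. Library numbers only name the libraries.

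Since the tables hold no counts, log2(normalized reads + 1) was tested with limma 3.58.1 (R 4.3.3) with a mean-variance trend, for genes with a mean of at least 10 normalized reads, with p-values of all genes tested adjusted by Benjamini-Hochberg. A clone was compared with WT in a fit of those 2 groups, the clones in a fit of 3 groups, and CM with NPC by an interaction term. In simulated KO4 data, 47.7% of genes changed 2-fold were called in naive cells, 2.22% in primed cells, 1.11% in NPC and 7.14% in CM, and of genes changed 4-fold 91.9%, 56.5%, 68.9% and 63.6%. Only a small part of the genes was changed in that simulation, and the spread of the reads was assumed. A call there needed a smaller p than where many genes differ, so these shares do not give the power in the real data. Alternatives were other size factors, filters, pseudocounts, voom weights, a fit of all 3 groups and leaving out each library.

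Named are the 9 members, Zfp512b, of each list per stage up to 4 genes that both clones moved one way (with the largest smaller difference) and up to 2 called in 1 clone, and the 3 genes most like each member tested at all 4 stages. Members and lists were chosen with earlier results of these data known. Reads were solved in Python 3.11.15 (numpy 2.4.6, numba 0.67.0). 1 gene of the endoderm list is not reported here by name.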

Additional observations from a re-analysis of the deposited data

Results flagged for a closer look

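Results are listed here because an effect differed between the clones, or between the cultures, by a limma test of the difference itself. In CM the log2 difference of KO8 from KO4 was 5.67 for Foxa1, 4.39 for Hnf4a, 4.06 for Hhex, 3.58 for Foxa2 and 1.58 for Mesp1. In NPC it was 2.16 for Hnf4a and 0.61 for Foxa1. The KO4 effect differed between CM and NPC by -3.62 for Foxa1, -3.61 for Hhex and -2.29 for Foxa2. The KO8 effect differed by 1.45 for Foxa1. Each clone is 1 line, so a difference between KO4 and KO8 is one between these lines.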

How the results depend on the processing

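No paired analysis was possible because the libraries solved from the base means carry no replicate number of the labels. Of 383 values of members under settings other than leaving out a library, 369 kept their direction and their side of the threshold. The exceptions that ended a call were Hnf4a without a filter in KO4 (adjusted p = 0.0636 in naive cells, 0.0938 in NPC, 0.0851 in CM) and in KO8 (0.0578 in NPC), Hnf4a with voom weights in KO4 CM (0.0697) and KO8 NPC (0.0718), Hnf4a in KO4 NPC in the fit of 3 groups (0.0779), Mixl1 in KO8 CM without a filter (0.0781) and Hhex in KO8 CM in the fit of 3 groups (0.0682). Foxa2 (0.0498, KO4 NPC, upper quartile; 0.0442, KO8 CM, voom), Hnf4a (0.0291, KO8 CM, voom) and Mixl1 (0.0479, KO8 against KO4 in CM, pseudocount of 5) gained a call. The difference of Foxa1 between the clones in primed cells, -0.00, was 0.03 with a pseudocount of 5.

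The number of genes called moved by more than 1.5 times under a filter of 50 in naive cells, which tests fewer genes (274 in KO4 and 278 in KO8, from 661 and 629), without a filter in primed cells (503 and 733, from 1789 and 1478), in the fit of 3 groups in NPC (741 and 1127, from 1687 and 667) and with voom weights in KO8 NPC (217). The cause of the last 3 changes was not tested.

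When each library was left out in turn, KO4 calls ranged from 496 to 731 in naive cells, 1043 to 1456 in primed cells, 1225 to 1698 in NPC and 2761 to 3717 in CM, and KO8 calls from 410 to 665, 849 to 1106, 0 to 2087 and 1149 to 2541. Calls between the clones ranged from 80 to 211, 108 to 229, 5 to 1504 and 3684 to 5039, and calls of CM against NPC from 2445 to 3006 in KO4 and 581 to 1509 in KO8. Of 431 values of members, 344 kept their direction and side, 33 lost a call, 20 gained one and 34 changed sign. Those that changed sign ranged as follows. In KO4 they were Foxa2 in naive cells (-0.25 to 0.73), Mixl1 (-0.80 to 0.46), Hnf4a (-0.85 to 0.34) and Hhex (-0.09 to 0.31) in primed cells, Mixl1 in NPC (-0.15 to 0.26), and Eomes (-0.55 to 0.66) and Mixl1 (-0.24 to 1.18) in CM. In KO8 they were Foxa2 in naive cells (-0.61 to 0.45), Mixl1 in primed cells (-2.10 to 0.51), Eomes (-0.24 to 0.96), Foxa1 (-0.05 to 0.01), Sox17 (-0.19 to 0.16) and Hhex (-0.10 to 0.22) in NPC, and Eomes in CM (-0.00 to 1.20). Between the clones they were Foxa2 in naive cells (-0.73 to 0.06) and Mixl1 (-1.94 to 0.67), Foxa1 (-0.66 to 0.66), Sox17 (-0.37 to 0.04) and Hnf4a (-0.71 to 0.48) in primed cells, and for CM against NPC Mixl1 in KO4 (-0.30 to 1.12) and Eomes (-0.36 to 0.84) and Hnf4a (-0.76 to 1.99) in KO8. In simulated data with 2 libraries a group, most 2-fold changes were not called. Few genes were changed in that simulation, so it does not give the power in the real data.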
